A study of Mus musculus with 6 samples.

Results

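A set of 9 receptors that steer the movement of myeloid cells was measured in microglia, the macrophages that reside in brain tissue: Cx3cr1, Ccr1, Ccr2, Ccr7, Ccrl2, Cxcr4, Fpr1, Fpr2 and C5ar1. The 9 genes were chosen by symbol, and each was found among the 48005 gene entries of the count table. Fpr2 shares an entry with its neighbour Fpr3, and the other 8 have an entry of their own. Messenger RNA was sequenced from 6 samples of cultured CD1 mouse microglia, 3 that received a control treatment and 3 that received extracellular vesicles (EVs), membrane-bound particles released by cells. The EVs came from primary neural stem cells of the CD1 subventricular zone, collected by serial centrifugation. What the control treatment was, the EV dose and the exposure time are not stated in the labels. Nor is it stated whether replicates came from separate animals or cultures, so p-values reflect only how far these 6 samples scatter, and that scatter may be technical. Each library carries its group and the letter of its title.

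These are G protein-coupled receptors of the cell surface, which, apart from Ccrl2, signal through heterotrimeric G proteins to phosphoinositide 3-kinase, phospholipase C and the Rac GTPases that drive the leading edge of a crawling cell. Chemokine receptors read gradients of small secreted proteins, whereas formyl peptide receptors read bacterial and mitochondrial N-formyl peptides and C5ar1 reads the complement fragment C5a. In the brain, Cx3cr1 is a hallmark of resting microglia, which receive its ligand fractalkine from neurons.

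The genes are protein-coding and are placed here on GRCm38 by the files' own bins. On chromosome 9 lie 4 of them: Ccrl2 (ENSMUSG00000043953) at chr9:111054486-111057519, Cx3cr1 (ENSMUSG00000052336) at chr9:119901616-120069879 and Ccr1 (ENSMUSG00000025804) at chr9:123962124-123968692 on the minus strand, and Ccr2 (ENSMUSG00000049103) at chr9:124101950-124113557 on the plus strand. Cxcr4 (ENSMUSG00000045382) lies at chr1:128588199-128592293, C5ar1 (ENSMUSG00000049130) at chr7:16246743-16259540 and Ccr7 (ENSMUSG00000037944) at chr11:99144196-99155077, all on the minus strand. The formyl peptide receptors neighbour each other, Fpr1 (ENSMUSG00000045551) at chr17:17876471-17883940 on the minus strand and Fpr2 (ENSMUSG00000052270) at chr17:17887824-17893952 on the plus strand, where its first exon overlaps that of Fpr3.

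Summed over all exon bins, the libraries held 109744701 to 162544804 counts. Between 0.0524% and 0.0662% of control counts fell in the 9 receptors, and between 0.150% and 0.179% of EV-treated counts. Of the 9 genes that define microglia and macrophages, all were present in both groups. Their summed level, in CPM (counts relative to the TMM-scaled library total), was 7458 to 8957 in control and 5142 to 5389 after EVs. Among them Itgam, an integrin subunit of macrophages, stood at 909 ± 141 and 927 ± 71.5 CPM and Csf1r, the receptor for macrophage colony-stimulating factor, at 775 ± 34.5 and 807 ± 101 CPM (SD, n = 3 each, control first). Of the 7 genes more particular to microglia, control levels ran from 126 ± 37.5 CPM for Olfml3 and 68.2 ± 27.9 CPM for Fcrls, through 7.69 ± 2.19 for Tmem119, 6.35 ± 1.0 for Sall1, 5.26 ± 1.15 for Gpr34 and 3.77 ± 1.14 for P2ry12, to 0.0273 ± 0.0237 CPM for Siglech.

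The DNA upstream of the start is shown for Ccrl2, Ccr1, Fpr1 and Fpr2, the receptors with such an entry whose transcripts rose after EVs. RefSeq promoter entries on GRCm38.p6 were matched by symbol for 8 of the 9 receptors, with 10 starts, and not for Ccr7. The 250 bases upstream of the start are printed 5′ to 3′ on the strand of the gene, in lower case, with the letters of any motif found in capitals. The windows are chr9:111057519-111057768 on the minus strand for the most upstream start of Ccrl2, chr9:123968693-123968942 on the minus strand for Ccr1, chr17:17883940-17884189 on the minus strand for Fpr1 and chr17:17887574-17887823 on the plus strand for Fpr2.
Ccrl2: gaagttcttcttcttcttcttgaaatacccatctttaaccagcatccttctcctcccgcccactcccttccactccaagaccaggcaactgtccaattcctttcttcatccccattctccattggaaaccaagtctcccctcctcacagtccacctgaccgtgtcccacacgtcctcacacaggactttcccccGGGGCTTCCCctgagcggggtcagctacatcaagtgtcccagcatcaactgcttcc
Ccr1: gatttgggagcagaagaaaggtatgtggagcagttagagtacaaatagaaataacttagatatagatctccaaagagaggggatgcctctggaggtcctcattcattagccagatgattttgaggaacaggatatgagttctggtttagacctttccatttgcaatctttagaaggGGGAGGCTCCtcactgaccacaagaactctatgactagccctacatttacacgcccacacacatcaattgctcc
Fpr1: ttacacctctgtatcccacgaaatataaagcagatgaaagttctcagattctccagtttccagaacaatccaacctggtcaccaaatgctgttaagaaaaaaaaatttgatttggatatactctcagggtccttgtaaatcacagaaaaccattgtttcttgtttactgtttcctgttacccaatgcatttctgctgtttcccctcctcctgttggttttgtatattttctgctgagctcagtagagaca
Fpr2: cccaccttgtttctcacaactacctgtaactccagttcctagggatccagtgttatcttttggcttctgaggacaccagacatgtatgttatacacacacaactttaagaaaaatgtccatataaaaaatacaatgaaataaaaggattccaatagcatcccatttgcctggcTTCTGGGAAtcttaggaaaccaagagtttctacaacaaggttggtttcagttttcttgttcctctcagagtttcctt

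A set of 5 motifs was searched on both strands: the NF-kB site by its name, PU.1 as GAGGAAGT, AP-1 as TGANTCA, C/EBP as TTGCNNAA and the STAT site GAS as TTCNNNGAA. The NF-kB letters occurred in 2 of the 10 windows, beginning 56 bases before the most upstream start of Ccrl2 and 74 bases before that of Ccr1. Of 32817 distinct windows of the same length over all genes, 7.25% held an NF-kB match. The GAS letters occurred in 1 window, beginning 77 bases before the start of Fpr2, against 7.01% of all windows. No window of the 8 receptors held the letters of PU.1, AP-1 or C/EBP, which occurred in 2.44%, 6.75% and 9.57% of all windows. No match overlapped another motif. These are matches of letters in the sequence, and binding was not measured.

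EV-treated microglia held far more transcript of Ccrl2, Fpr2, Fpr1 and Ccr7 than control microglia, moderately more of Ccr1, and far less of Cx3cr1. With edgeR's quasi-likelihood test and Benjamini-Hochberg adjustment over 16605 entries, 5 of the 9 receptors rose, where 33% of all entries tested rose, and 2 fell, where 33.5% of all entries fell. Cxcr4 and C5ar1 did not pass the threshold of 0.05. Rises made up 49.7% of all calls with TMM scaling and 34.0% with library totals alone. The 3 libraries of each group did not overlap for 7 of the 9 receptors, against 71.3% of all entries tested. Changes were thus widespread over the transcriptome, and the counts of receptors are read against that background. In bulk RNA, fewer cells that carry a transcript and less of that transcript per cell cannot be told apart.

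**Figure D1:**
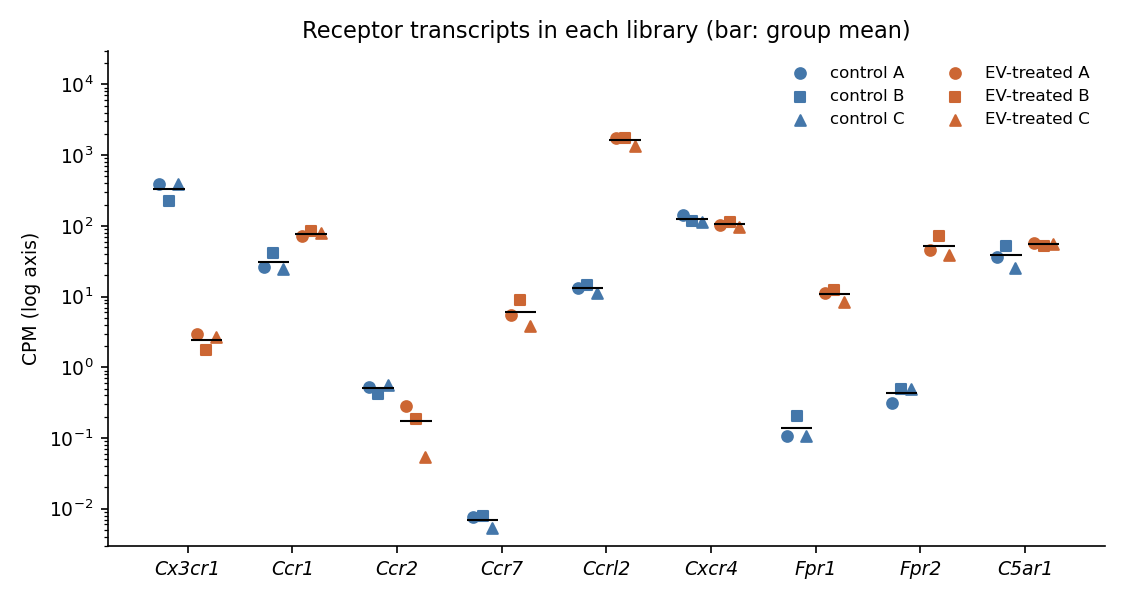
CPM of each receptor in each library on a log axis, control in blue and EV-treated in orange, with a bar at each group mean and the replicate letter as the marker shape. The groups are apart for 7 receptors and overlap for Cxcr4 and C5ar1.

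Cx3cr1 encodes the fractalkine receptor, which tethers microglia to signals from neurons. It was measured at 388, 226 and 394 CPM in control A, B and C and at 2.98, 1.76 and 2.66 CPM in EV-treated A, B and C. Every EV-treated library lay far below every control library. The group means were 336 ± 95.3 and 2.46 ± 0.632 CPM (SD, n = 3 each), 136-fold lower after EVs; the fitted log2 fold change was -7.09 ± 0.31 (SE, adjusted p = 5.9e-08 in edgeR). Of the 16605 entries tested, 24 had a lower log2 fold change.

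Ccr1 and Ccr2 lie in the same receptor cluster on chromosome 9 and moved in opposite directions. Ccr1, a receptor for the inflammatory chemokines Ccl3, Ccl5 and Ccl9, stood at 25.9, 41.1 and 24.7 CPM in control and at 71.5, 83.9 and 78.4 CPM in EV-treated libraries. The highest control library, B, lay below the lowest EV-treated one. The log2 fold change was 1.35 ± 0.19 (SE, adjusted p = 0.00014 in edgeR), from 30.6 ± 9.16 to 78.0 ± 6.22 CPM (SD, n = 3 each). Ccr2, the receptor for Ccl2 that draws blood monocytes into tissue, was close to the limit of detection at 0.524, 0.425 and 0.562 CPM in control and 0.283, 0.185 and 0.0547 CPM in EV-treated libraries. These rest on 69, 54 and 106 counts and on 35, 21 and 7 counts. All EV-treated libraries lay below all controls, and the log2 fold change was -1.54 ± 0.51 (SE, adjusted p = 0.023 in edgeR). The call was lost without control A (log2 fold change -1.53, adjusted p = 0.0515) and without control C (-1.47, adjusted p = 0.0549), and also when Ccr2 was counted from its bin with the most counts (-1.26, adjusted p = 0.079).

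Ccr7 guides dendritic cells and T cells to lymph nodes. A single count was found in each of the 3 control libraries, and 674, 1002 and 497 counts in EV-treated A, B and C, which come to 5.44, 8.81 and 3.88 CPM. EV-treated libraries all lay far above the controls. The ratio of the scaled sums was 886, with a 95% exact interval of 303 to 4298 that covers counting error only. The fitted log2 fold change of 9.63 ± 0.50 (SE, adjusted p = 2e-07 in edgeR) depends on the prior count, since the control level rests on 3 counts.

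Ccrl2 is an atypical receptor that binds chemerin and presents it to neighbouring cells without signalling of its own. It went from 13.3, 14.6 and 11.3 CPM in control to 1763, 1738 and 1348 CPM in EV-treated libraries. No library of one group came near the other. The means were 13.1 ± 1.69 and 1616 ± 233 CPM (SD, n = 3 each), 124-fold apart; the fitted log2 fold change was 6.95 ± 0.19 (SE, adjusted p = 5.7e-09 in edgeR). The log2 fold change was higher in 223 of the 16605 entries.

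The formyl peptide receptors rose from near 0. Fpr1, a receptor for N-formyl peptides, was at 0.106, 0.205 and 0.106 CPM in control (14, 26 and 20 counts) and at 11.3, 12.5 and 8.39 CPM in EV-treated libraries. The groups were far apart; the fitted log2 fold change was 6.29 ± 0.29 (SE, adjusted p = 8.8e-08 in edgeR). The entry of Fpr2, a receptor that also binds serum amyloid A and annexin A1, stood at 0.311, 0.496 and 0.499 CPM in control and at 45.7, 72.2 and 39.4 CPM in EV-treated libraries. All EV-treated libraries were well above the controls, and the log2 fold change was 6.90 ± 0.30 (SE, adjusted p = 6.1e-08 in edgeR). The entry joins Fpr2 with Fpr3, but the bin that only Fpr3 exons cover (chr17:17970458-17971677, GRCm38, 1220 bp) held 0, 0 and 0 counts in control and 2, 1 and 1 in EV-treated libraries. Counted from the bins that only Fpr2 exons cover, an alternative added after seeing the data, the log2 fold change was 6.85 (adjusted p = 4.5e-08).

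Cxcr4, the receptor for Cxcl12 that also has a role in retaining cells in their niche, was at 143, 117 and 112 CPM in control and at 104, 113 and 97.4 CPM in EV-treated libraries. The groups overlapped, EV-treated B lying above control C. The log2 fold change was -0.24 ± 0.12 (SE, adjusted p = 0.11 in edgeR), and its approximate 95% interval ran from -0.48 to just above 0. With library totals alone as the scaling it was -0.60 (adjusted p = 0.00066), where the median of all entries moved from -0.02 to -0.38, and with upper-quartile scaling -0.36 (adjusted p = 0.0205).

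C5ar1, the receptor for the complement fragment C5a, was at 35.9, 52.7 and 25.8 CPM in control and at 57.3, 52.2 and 54.9 CPM in EV-treated libraries. Control B lay within the range of the EV-treated libraries, and the other controls below. The log2 fold change was 0.52 ± 0.21 (SE, adjusted p = 0.054 in edgeR), its approximate 95% interval ran from 0.10 to 0.95, and without control B it was 0.81 (adjusted p = 0.0013). C5ar1 also passed the threshold with DESeq2 (0.55, adjusted p = 0.0235) and with limma-voom (0.59, adjusted p = 0.0315), but not with upper-quartile scaling (0.40, adjusted p = 0.123) or library totals alone (0.16, adjusted p = 0.542).

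**Figure D2:**
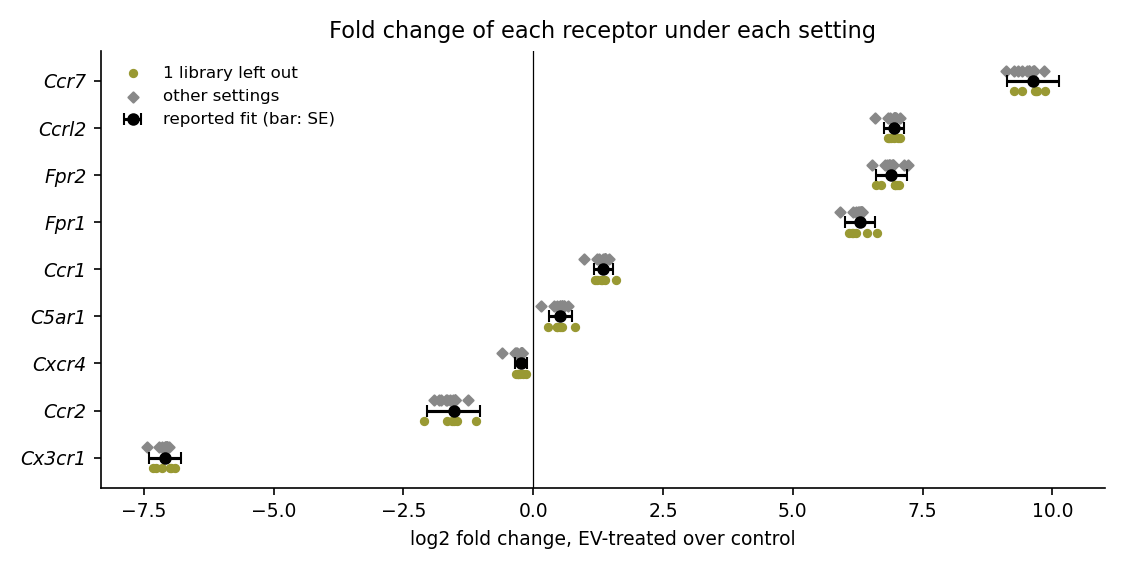
Log2 fold change of each receptor, EV-treated over control, with its SE (black) from the reported fit, and the values with 1 library left out (yellow) and under other settings (grey). Ccr7, Ccrl2, Fpr2, Fpr1, Ccr1 and C5ar1 lie right of 0 and Cxcr4, Ccr2 and Cx3cr1 left of 0 under every setting shown. C5ar1 and Cxcr4 were not called in the reported fit.

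The make-up of the receptor transcripts was compared per length, as CPM per kilobase of exon. In control libraries Cx3cr1 (74.6 ± 21.2) and Cxcr4 (68.6 ± 9.03) were the most abundant and their ranges overlapped, then C5ar1 (14.8 ± 5.29) and Ccr1 (10.8 ± 3.23), whose ranges also overlapped, then Ccrl2 (5.03 ± 0.650), Fpr2 (0.336 ± 0.0830), Fpr1 (0.105 ± 0.0430) and Ccr2 (0.0745 ± 0.0104), the last pair overlapping, and Ccr7 lowest. In EV-treated libraries Ccrl2 led at 622 ± 89.6, followed by Cxcr4 (58.1 ± 4.44), Fpr2 (40.4 ± 13.4), Ccr1 (27.5 ± 2.20), C5ar1 (21.3 ± 0.991), Fpr1 (8.11 ± 1.60), Ccr7 (3.06 ± 1.27), Cx3cr1 (0.547 ± 0.140) and Ccr2 (0.0257 ± 0.0169). Of the neighbours in that order only Cxcr4 and Fpr2 had overlapping ranges. Counted from the bin with the most coding bases, C5ar1 (33.5 ± 1.75) stood above Ccr1 (26.2 ± 2.0) after EVs, and Ccr2 (0.159 ± 0.0315) above Fpr1 (0.104 ± 0.0396) in control, where their ranges overlapped, so the order of these pairs depends on the bins used. These levels were not tested against each other.

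Ccrl2 took 2.50% to 3.6% of the 9 receptors' summed CPM per kilobase in control and between 78.5% and 81.6% after EVs. Cx3cr1 went from 32.1% to 50.5% in control down to 0.0458% to 0.0892%. Counted from the bin of each gene with the most coding bases, Ccrl2 held 2.04% to 2.93% and 76.9% to 80.0%. Without Ccrl2, the sum of the other 8 in plain CPM, not per kilobase, was 438 to 593 in control and between 285 and 345 after EVs. Cx3cr1 alone held 388, 226 and 394 CPM of it in control A, B and C. It held 2.98, 1.76 and 2.66 CPM in EV-treated A, B and C. The lower sum is therefore not a fall shared by the other receptors, of which Ccr1, Ccr7, Fpr1 and Fpr2 rose.

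**Figure D3:**
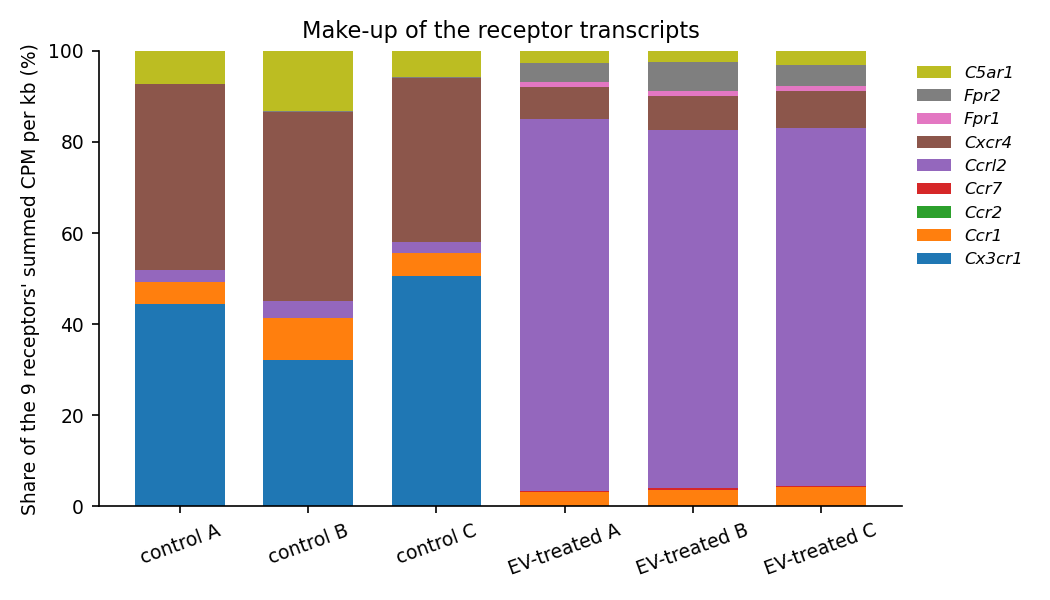
Share of each receptor in the summed CPM per kilobase of the 9, as stacked bars for each library. Cx3cr1 and Cxcr4 fill most of the control bars, and Ccrl2 fills 78.5% to 81.6% of the EV-treated bars.

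Within the genes, the exon bins were tested for a change in usage relative to the rest of the same gene (edgeR's diffSpliceDGE). Of 52 bins of the 9 receptors 38 were tested and 4 were called, where 4.19% of all 198470 bins tested were called. In Ccrl2 3 of 8 bins rose less than the gene. The 3′-most bin, 346 bp that only the transcript Ccrl2-201 covers, held 1.77%, 1.78% and 1.98% of the Ccrl2 counts in control and 0.295%, 0.309% and 0.390% in EV-treated libraries, a log2 usage change of -2.48 (adjusted p = 1.1e-11). A 322-bp bin of the same transcript went from 5.25%, 6.90% and 5.98% to 2.04%, 2.30% and 2.65% (-1.39, adjusted p = 1.4e-07), and a 42-bp bin shared with another transcript from 1.37%, 1.35% and 1.56% to 0.534%, 0.630% and 0.673% (-1.22, adjusted p = 0.00019). Every control library was above every EV-treated library in these shares, and each of the 3 bins was called in all 10 fits run. The 24-bp bin that also belongs to Ccrl2-201 alone was not called: it held 0.342%, 0.270% and 0.283% in control and 0.220%, 0.261% and 0.307% after EVs (-0.20, adjusted p = 0.99991). In counts these bins rose too: the 346-bp bin by 22-fold and the 322-bp bin by 47.0-fold, against 127-fold for the 1198-bp bin that holds the most coding bases.

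In C5ar1 the 89-bp bin near the 5′ end, which a single annotated transcript covers and which holds no coding bases, went from 1.18%, 1.0% and 1.69% of the gene's counts to 0.324%, 0.454% and 0.342%, with 56, 67 and 82 counts in control and 23, 27 and 24 in EV-treated libraries. Its log2 usage change was -1.70 (adjusted p = 0.029), and all control libraries were above all EV-treated ones. The call was lost with the replicate block (-1.77, adjusted p = 0.056), without control A (-1.71, 0.17) and without EV-treated A (-1.60, 0.15), B (-1.85, 0.14) or C (-1.64, 0.20), while the size of the change stayed similar. No bin of Cx3cr1, Ccr1, Ccr2, Ccr7, Cxcr4, Fpr1 or Fpr2 was called.

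**Figure D4:**
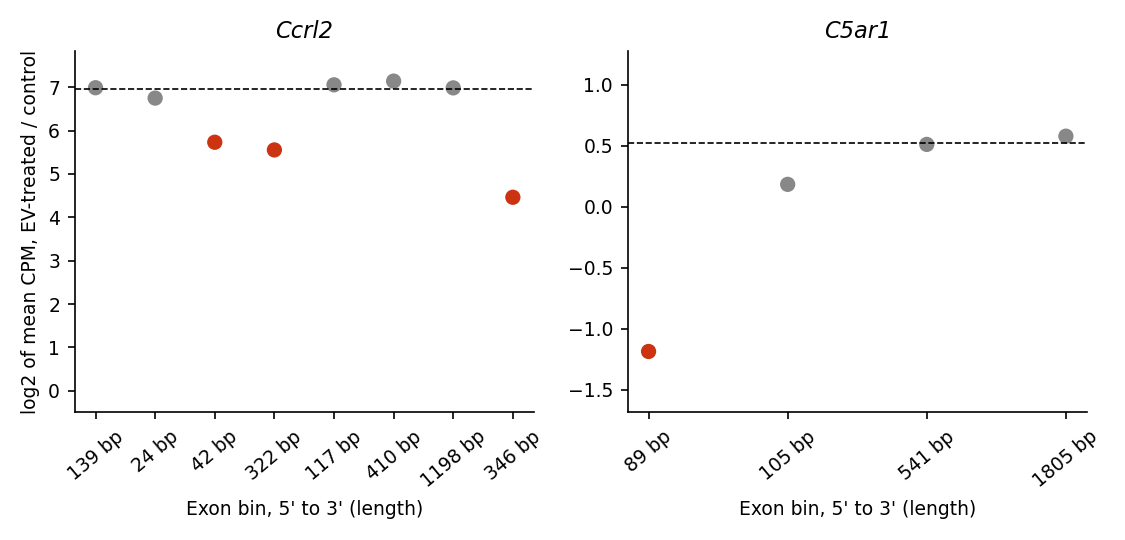
Log2 ratio of mean CPM, EV-treated over control, for the tested exon bins of Ccrl2 and C5ar1 from the 5′ to the 3′ end, labelled by length. Bins whose usage was called are red, and the dashed line is the log2 fold change of the gene.

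Each receptor was then set beside its ligands as measured in the same libraries. Of 20 ligand genes 16 were tested, of which 13 rose, 1 fell and 2 were not called. Over all entries tested 33% rose and 33.5% fell. The ligands had a median log2 fold change of 4.30 against -0.02 over all entries. Cx3cl1, the fractalkine of Cx3cr1, rose from 0.589 ± 0.274 to 1.74 ± 0.237 CPM. For Ccr1, Ccl3 went from 65.8 ± 19.7 to 1130 ± 95.8, Ccl5 from 38.6 ± 14.1 to 3748 ± 538 and Ccl9 from 159 ± 105 to 1059 ± 301 CPM (SD, n = 3 each), and all 3 rose, whereas Ccl6 was at 30.2 ± 21.9 and 20.6 ± 6.33 CPM and not called. For Ccr2, Ccl2 rose from 3.23 ± 1.71 to 64.7 ± 14.3, Ccl7 from 0.0814 ± 0.0767 to 2.72 ± 0.555 and Ccl12 from 0.167 ± 0.0272 to 8.79 ± 4.84 CPM. All 3 tested ligands of Ccr2 rose while Ccr2 itself fell. That fall rests on 7 to 106 counts per library, and its call was lost without control A or control C.

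For Ccr7, Ccl19, Ccl21a and Ccl21b had no count in any library. For Cxcr4, Cxcl12 was not tested, at 0.0331 ± 0.0188 and 0.110 ± 0.0662 CPM, and Mif, a cytokine that also binds Cxcr4, rose from 52.3 ± 7.43 to 549 ± 45.7 CPM (log2 fold change 3.39 ± 0.15 SE, adjusted p = 5.7e-08 in edgeR). For Ccrl2, Rarres2, which encodes chemerin, was at 7.20 ± 0.581 and 6.83 ± 0.592 CPM and was not called (adjusted p = 0.63). The formyl peptide receptor ligands went apart. Saa3, a serum amyloid A protein, rose from 11.6 ± 1.30 to 4427 ± 1456 CPM (8.57 ± 0.30 SE, adjusted p = 1.8e-08), while Anxa1, annexin A1, fell from 1210 ± 200 to 423 ± 130 CPM (-1.52 ± 0.22 SE, adjusted p = 0.00020). Saa1, Saa2, Camp and, for C5ar1, Hc rose from 0.00177, 0.00516, 0.0184 and 0.00616 CPM to 1.28, 0.442, 0.768 and 0.145 CPM.

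**Figure D5:**
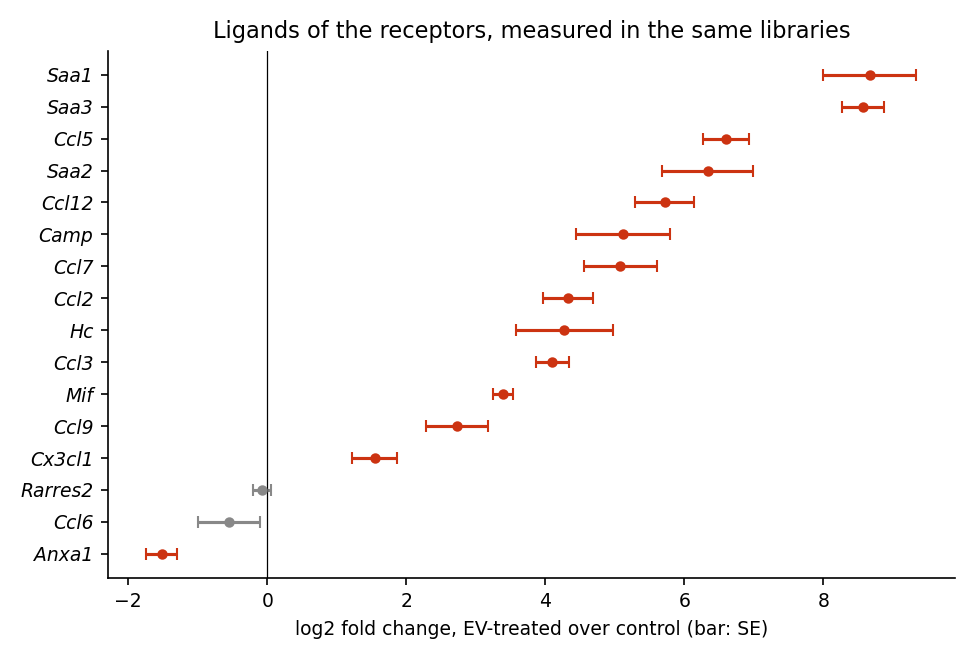
Log2 fold change with its SE of the 16 tested ligand genes, EV-treated over control, called ones in red. Of these, 13 lie right of 0 and called, with Saa1, Saa3 and Ccl5 at the top, and Anxa1 lies left of 0.

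Other chemokine receptors were few in transcripts. Of 14 genes 10 were tested, 4 rose and 5 fell, with a median of -0.30 on the log2 scale, beside the 33% and 33.5% of all entries tested. Xcr1, a receptor of cross-presenting dendritic cells, rose from 0.201 ± 0.0303 to 3.57 ± 0.423 CPM (4.15 ± 0.23 SE, adjusted p = 2.6e-07). In the cluster around Ccr1 and Ccr2 on chromosome 9, Ccr9 (an entry joined with a gene model), Cxcr6 and Xcr1 rose and Ccr3 fell. Of 6 atypical receptors 3 were tested and 1 rose.

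Of 17 receptors for other chemoattractants 10 were tested, 9 fell and 1 rose, where 33.5% of all entries fell and 33% rose. The rise is the entry of Fpr2 counted again for Fpr3, whose own bin held 0 to 2 counts. S1pr1, a sphingosine-1-phosphate receptor, fell from 69.4 ± 21.5 to 4.88 ± 1.0 CPM (-3.83 ± 0.24 SE, adjusted p = 6.5e-07) and Cmklr1, the signalling receptor for chemerin, from 34.6 ± 5.27 to 6.77 ± 1.51 CPM (-2.35 ± 0.18 SE, adjusted p = 2.4e-06). Gpr1, a further chemerin receptor, had too few counts to be tested. The list median was -1.74, against -0.02 over all entries.

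In the signalling machinery, 7 of 24 genes for receptor coupling and migration rose and 11 fell (median -0.22), where 33% of all entries rose and 33.5% fell. Gna13, a G protein alpha subunit, rose from 115 ± 15.9 to 684 ± 15.7 CPM and Rac2, a Rac GTPase of blood cells, from 193 ± 14.7 to 624 ± 53.1 CPM. Plcb2, a phospholipase C, fell from 23.7 ± 1.63 to 3.42 ± 0.492 CPM and Elmo1, which works with Dock2 to activate Rac, from 77.4 ± 11.8 to 15.6 ± 0.130 CPM. Of 15 genes for desensitisation and regulators of G protein signalling with an entry, 2 rose and 8 fell (median -0.93), against 33% and 33.5% of all entries. Rgs2 fell from 447 ± 18.8 to 12.5 ± 1.26 CPM (-5.16 ± 0.13 SE, adjusted p = 3.8e-09) and Rgs14 from 21.1 ± 2.89 to 3.0 ± 0.727 CPM, while Grk3, a receptor kinase, rose from 14.8 ± 3.22 to 56.2 ± 4.99 CPM and Arrb1, beta-arrestin 1, from 116 ± 6.19 to 256 ± 39.3 CPM.

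Genes of other cell types were also measured, since Ccr7, Ccr2, Fpr1 and Xcr1 are known from dendritic cells, monocytes and neutrophils. The 5 monocyte markers summed to 0.182 to 0.393 CPM in control and between 1.73 and 2.05 CPM after EVs, with 1 tested, Vcan, which rose, and Chil3 at 0 counts. The 8 neutrophil markers summed to 0.229 to 0.414 and 0.856 to 0.949 CPM, with Elane and Retnlg at 0. Of 2 tested, 1 rose, Camp (0.0184 ± 0.0257 to 0.768 ± 0.132 CPM), and 1 fell, Cxcr2 (0.291 ± 0.0887 to 0.0280 ± 0.0265 CPM). Camp thus made up most of the sum after EVs. The 6 dendritic cell markers summed to 4.46 to 5.62 and 7.09 to 8.19 CPM, with Cd209a at 0, 2 risen and 1 fallen of 4 tested. The 7 lymphocyte markers summed to 5.29 to 9.76 and 1.08 to 1.51 CPM, with Cd8a at 0 and 1 fallen of 2 tested, Cd4 (7.58 ± 2.23 to 1.21 ± 0.258 CPM). Over all entries tested 33% rose and 33.5% fell. Xcr1, Camp and Cxcr2 stand in both a marker list and a list above.

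The 6 astrocyte markers summed to 10.9 to 15.5 CPM in control and between 88.3 and 124 CPM after EVs, and 3 of 5 tested rose and 1 fell. Those that rose include the glutamate transporter Slc1a2 (0.0952 ± 0.0805 to 74.8 ± 17.7 CPM) and the connexin Gja1 (0.0943 ± 0.0378 to 29.1 ± 2.83 CPM). Aldh1l1, a folate enzyme whose entry is joined with another gene and which made up most of the control sum, fell from 13.4 ± 2.43 to 1.72 ± 0.635 CPM (-2.96 ± 0.28 SE, adjusted p = 9.1e-06 in edgeR), and Aqp4 and Gfap stood near 0 in both groups. The 6 markers of fibroblasts, pericytes and endothelium summed to 14.0 to 36.9 and 16.0 to 24.0 CPM, with 4 risen and 1 fallen. The 7 oligodendrocyte lineage markers summed to 213 to 440 and 30.0 to 43.4 CPM, with 1 risen and 2 fallen of 4 tested, among them Cspg4, a proteoglycan, from 291 ± 112 to 24.3 ± 5.76 CPM. The 6 markers of neural stem cells, the source of the EVs, and of neurons summed to 46.3 to 82.9 and 2.43 to 3.58 CPM, with 2 fallen and none risen of 4 tested, among them Nes, the intermediate filament nestin, from 68.5 ± 19.9 to 2.47 ± 0.668 CPM. The 6 border macrophage markers summed to 295 to 408 and 165 to 280 CPM, with 2 risen and 1 fallen of 5 tested. Pf4 and F13a1 rose (log2 fold change 1.39 and 2.45) and Mrc1 fell (-2.55). Ms4a7, which was not called, made up most of both sums, with means of 264 and 185 CPM. The microglia markers summed to 156 to 251 and 31.5 to 33.1 CPM. Of 6 tested, 5 fell, as did Cx3cr1, and 1 rose, where 33.5% of all entries fell and 33% rose. Those that fell stood after EVs at 5.24 (Olfml3), 12.5 (Fcrls), 2.96 (Tmem119), 0.0343 (Gpr34) and 0.0885 CPM (P2ry12). Sall1 rose from 6.35 ± 1.0 to 11.35 ± 0.647 CPM (0.84 ± 0.14 SE, adjusted p = 0.00061 in edgeR). The part of these cell types in the receptor values was not tested.

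For each receptor the 2 single-gene entries with the nearest pattern were taken, by the Euclidean distance of centred log2 CPM over the 6 libraries, as a description with no test. The log2 CPM used a prior count of 2, which damps differences at low levels, so near entries can differ in fitted fold change. Ccrl2 was nearest to Trem1, a myeloid receptor (distance 0.281), and Slco3a1 (0.446). Fpr1 was nearest to Tnfaip6 (0.345) and Trim30c (0.536), Fpr2 to Slamf7 (0.382) and Gbp5 (0.487), and Ccr7 to Lcn2 (0.657) and Ptges (0.824). The fitted log2 fold change was 8.70 for Tnfaip6 against 6.29 for Fpr1. It was 8.15 for Lcn2 and 8.01 for Ptges against 9.63 for Ccr7. Cx3cr1 was nearest to Asb10 (0.732) and Rasgrp3 (0.876), Ccr2 to Lcat (0.541) and Lgi4 (0.606), and Ccr1 to Dmrta2 (0.263) and Gstm1 (0.281). Cxcr4 was nearest to Mpeg1 (0.101) and Cd99l2 (0.132), and C5ar1 to Slc6a17 (0.224) and Cuedc1 (0.294).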

How the data were processed

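Polyadenylated RNA of 6 samples of cultured microglia was sequenced after Trizol extraction and NEBNext Ultra library preparation, per the labels' protocols. The deposited values are raw counts per exon bin, whole numbers, per the file headers; Trimmomatic 0.36, STAR, Subread and DESeq2 and the build GRCm38 are listed in the submitters' processing notes. The strand setting of the counting is not given in the sources used here, so reads of overlapping and antisense genes cannot be told apart. Reads that span bins appear to be counted in each of them (the 6-bp bin of Cxcr4 held 909 to 1355 counts in control libraries), so counts are not distinct reads. Bin bounds of all 52 bins of the receptors equal those of GENCODE vM21 exons.

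Each entry's bins were added up. Symbols were found for 49298 of 49644 identifiers, and 1194 of 48005 entries join several genes. Entries were filtered with filterByExpr, which left 16605, scaled by TMM (factors 1.09 to 1.16 in control, 0.855 to 0.921 in EV-treated libraries) and compared with edgeR 4.0.16 (glmQLFit, glmQLFTest; R 4.3.3), 2-sided, with Benjamini-Hochberg adjustment and a threshold of 0.05. All 9 receptors passed the filter. Bin usage was tested with diffSpliceDGE on bins with at least 10 counts in at least 3 libraries, and its natural-log coefficients were converted to log2. SEs are the log2 fold change over the square root of F, and the interval of Cxcr4 is the estimate with 1.96 SEs on each side, as is that of C5ar1. Both tests were tested on simulated data.

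The receptors and gene lists were chosen with earlier results of these data known. Named from each list are up to 2 risen and 2 fallen genes with the smallest adjusted p and a mean log2 CPM of at least 0, in entries of 1 gene; the other ligands, Ccr3, Ccr9 and Cxcr6, and the markers were named after their values were seen. A gene that this rule takes is not reported here. Adrbk1 and Adrbk2, older symbols, matched no entry. Promoter sequences are RefSeq's. Alternatives were other scalings and filters, DESeq2 1.42.0, limma-voom (limma 3.58.1), a replicate block, each library left out, the bin with the most counts, and entries of single genes. Counts of replicates differed by more than sampling noise (chi-square over its degrees of freedom 85.4 to 254), so each library was counted once; this does not show separate cultures.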

Additional observations from a re-analysis of the deposited data

How the results depend on the processing

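Cx3cr1, Ccr1, Ccr7, Ccrl2, Fpr1 and Fpr2 kept their direction and their call under every alternative that gave them a value; Fpr2 has none with entries of single genes. Ccr2 missed the threshold when counted from its bin with the most counts (log2 fold change -1.26, adjusted p = 0.079). With each library left out, Ccr2 ran from -2.11 to -1.11, C5ar1 from 0.29 to 0.81 and Cxcr4 from -0.33 to -0.14. The number of receptors that fell was 1 with the bin with the most counts, and 1 to 2 with each library left out. It was 3 with upper-quartile scaling and with library totals alone. The number that rose was 4 with entries of single genes, where Fpr2 has no value. It was 6 with RLE scaling, either other filter, DESeq2, limma-voom and the replicate block. Without control B and with the bin with the most counts it was also 6, and otherwise 5. C5ar1 passed with RLE scaling (0.55), no filter (0.45), a filter of 50 counts in 3 libraries (0.55), DESeq2 (0.55), limma-voom (0.59) and the bin with the most counts (0.67). Cxcr4 passed with upper-quartile scaling (-0.36) and library totals alone (-0.60). With library totals alone 3910 entries rose and 7585 fell, 34.0% of calls risen against 49.7%. Over the alternatives the genes that the naming rule takes from the other lists gave 240 values, of which 240 kept direction and call. The causes were not tested.

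The letters of the titles were checked for pairing: deviations from the group means correlated at 0.035 (A), 0.167 (B) and 0.210 (C) between groups, so not every pair exceeded 0.1. With 3 libraries in each group these values cannot decide whether the letters mark pairs. The numbers in the deposited library names pair the libraries differently from the letters, and no source says that either marks a shared culture. Each library correlated best with its own letter, a hint from the data and not from the design. With the letter as a replicate block 5758 entries rose and 5851 fell, C5ar1 passed (0.58, adjusted p = 0.022), and 3 bins of the receptors were called in place of 4. Counts limit Ccr2 and the control levels of Ccr7, Fpr1 and Fpr2. The alternatives that count Fpr2 from its own bins, and the receptors from the bin with the most coding bases, were chosen after seeing the data.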
